A study of Mus musculus with 6 samples.

Results

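The genes described here mark oligodendrocyte precursors in the mouse brain. The list names 10 genes, and every probe set that the platform annotation assigns to exactly 1 of them was taken, which gave 25 of the 45037 probe sets tested. These probe sets cover 9 of the 10 genes. The platform annotation used here lists no probe set for Neu4, which encodes a sialidase, so it was not analysed here. Total RNA came from the non-cerebellar brain of 3 mouse samples labelled Gb5-deficient (Gb5ko, arrays 1 to 3) and 3 labelled wild type (Gb5wt, arrays 4 to 6), with 1 Affymetrix array per sample. Gnb5 encodes Gb5, a G protein beta subunit that forms complexes with RGS proteins of the R7 family. The labels describe littermates matched for age and sex and give no age, strain, sex per animal or construct of the Gb5 allele. Both groups were kept on the same light cycle with free access to food, and no treatment is named.

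Oligodendrocyte precursors are glial cells spread through grey and white matter that divide and give rise to myelin-forming oligodendrocytes. Platelet-derived growth factor, acting on the receptor encoded by Pdgfra, drives their division, and the transcription factors Olig1, Olig2 and Sox6 control their identity and the timing of their maturation. As a precursor commits to differentiation, Pdgfra and Cspg4 are turned off, Gpr17 is transiently switched on, and myelin genes follow.

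The mean levels of the brightest probe sets of the 9 measured genes lay between percentiles 62.3 and 96.4 of all probe sets. All probe sets include the dimmer ones of each gene, so these percentiles are partly set by the choice of the brightest. Against the brightest probe sets of all genes, Cspg4 lay below the median level and the other measured members above it. Across the 9 genes, knockout and wild-type levels lay close together. Read through the brightest probe set of each gene, 4 genes had a positive difference (knockout minus wild type) and 5 a negative one, between -0.30 and 0.25 on the log2 scale. Their median was -0.01, beside 0.05 over all 18193 genes. Of the 25 probe sets, 0 passed limma's test at an adjusted p of 0.05, a threshold that 0.0266% of all probe sets passed. At an unadjusted p under 0.05, 3 of the 25 did, against 14.4% of all probe sets, so the count was near the background. Of the 3, 1 was higher (Cspg4), a direction seen at 8.09% of all probe sets, and 2 were lower (both Ptprz1), against 6.33%. By gene, 2 of 9 brightest probe sets parted the groups without overlap, against 25.1% of all genes. The 95% intervals of the 25 differences reached from -0.67 to 0.55, so differences beyond that range lay outside the interval of each of them. Because the tissue was taken in bulk, fewer cells of a type and less RNA per cell cannot be told apart. The plot of levels by array shows the spread between arrays.

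**Figure D1:**
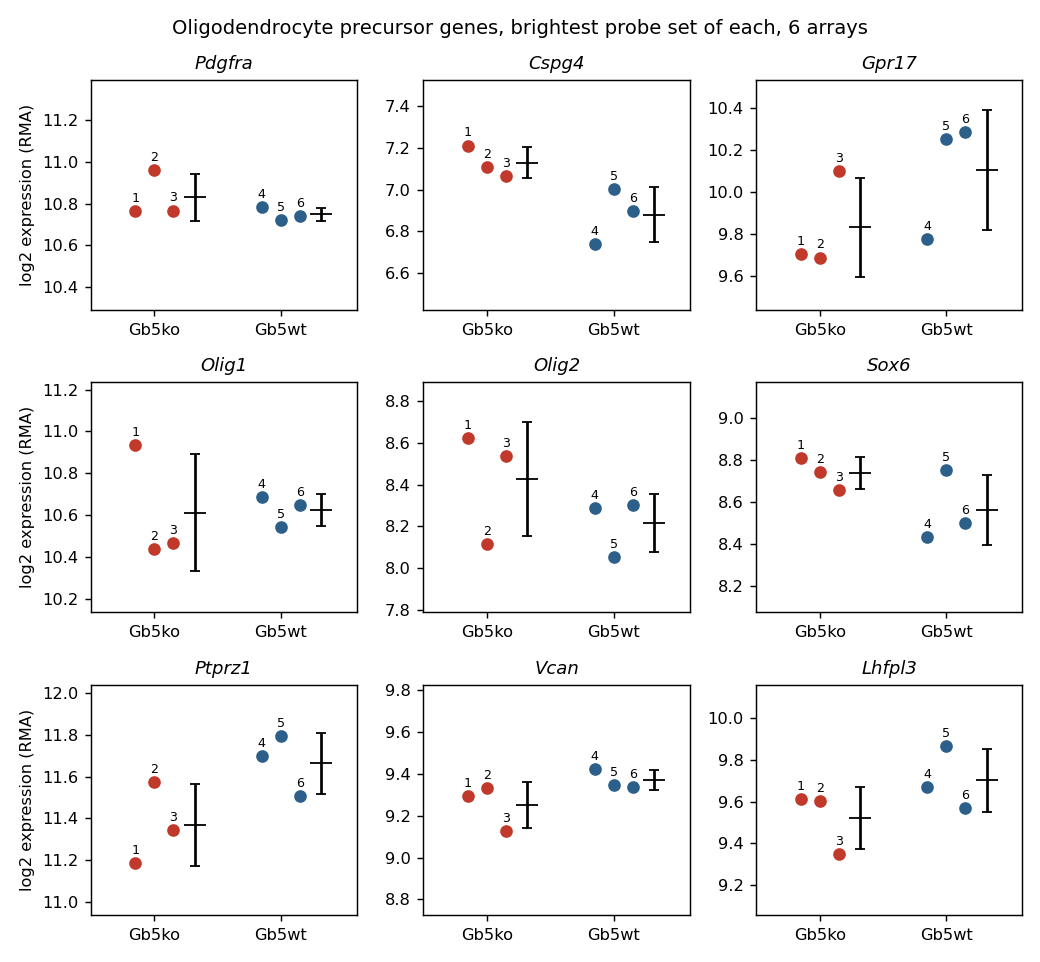
Log2 expression values (RMA) of the brightest probe set of each of the 9 measured genes, for 3 Gb5ko arrays (red) and 3 Gb5wt arrays (blue). Numbers are the array numbers of the labels, bars are the group mean ± SD, and every panel spans the same height on the log2 axis. The groups part without overlap at Cspg4 and at Vcan.

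The arrays themselves behaved alike for the targeted gene. The brighter Gnb5 probe set read 3.67, 3.00 and 3.56 on the knockout arrays, against 8.79, 8.98 and 9.30 on the wild-type arrays. A dimmer Gnb5 probe set, whose probes may bind other transcripts, read 3.83, 3.63 and 3.63 against 4.90, 4.95 and 4.20. Its groups did not overlap, but its difference of -0.98 did not pass (limma adjusted p = 0.173). Sex-linked and pituitary transcripts differed within groups. The Y-linked gene Eif2s3y read 2.96, 11.3 and 6.97 on the knockout arrays, against 11.3, 6.05 and 4.05 on the wild-type arrays. Xist, the transcript of the inactive X chromosome in females, read 10.7, 8.31 and 10.6 on the knockout arrays, against 4.96, 10.8 and 10.7 on the wild-type arrays. On knockout arrays 2 and 3 and wild-type array 5, both genes read well above their lowest values. Gh, the pituitary growth hormone gene, was highest on arrays 3 (10.6) and 6 (6.21). Leaving out the array of highest Eif2s3y or of highest Gh in each group left 0 member probe sets called by limma. In this text a level is an RMA value on the log2 scale, a difference is knockout minus wild type on that scale, and ± after a difference is the standard error of the limma fit. Levels of different probe sets are not comparable with each other, because each set of probes binds with its own strength. The series design calls the replicates biological, but whether each sample is a single animal is not given in the sources used here, and p-values measure the spread between these samples.

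The promoters of the members were looked at for motifs of the factor families on the list itself. Olig1 and Olig2 are basic helix-loop-helix proteins, which bind E boxes (CANNTG), and Sox6 has an HMG box of the kind that binds AACAAT and ACAAAG. Promoter sequence in RefSeq (build GRCm38.p6) was read for 8 of the 10 genes, in 13 windows of the 250 bases before an annotated start. No window of Gpr17 or Olig1 was among those read, so their promoters were not searched for motifs. Of these windows, 6 belong to Sox6, which has several starts. An E box was found in 10 of the 13 windows, against 66.2% of all 32851 windows. All 6 Sox6 windows are among those 10, and the rest belong to Pdgfra, Vcan, Lhfpl3 and Neu4. AACAAT on either strand was found in 2 windows (9.42% of all) and ACAAAG on either strand in 5 (16.5% of all). All 5 windows with ACAAAG, and 1 of the 2 with AACAAT, belong to Sox6. The windows of Cspg4 and Ptprz1 held none of these letters. The windows of 3 genes are shown because they carry the motifs before an annotated start of the precursor receptor gene, of a second gene expressed by precursors and of an Olig gene. Capitals mark CANNTG in the first 2 and, in the Olig2 window, ATTGTT, which reads AACAAT on the other strand. They lie at chr5:75152001-75152250, chr5:22745804-22746053 and chr16:91225300-91225549, all on the plus strand. The Pdgfra gene is annotated from base 75151322, so its window lies inside the gene, before an internal start.
Pdgfra: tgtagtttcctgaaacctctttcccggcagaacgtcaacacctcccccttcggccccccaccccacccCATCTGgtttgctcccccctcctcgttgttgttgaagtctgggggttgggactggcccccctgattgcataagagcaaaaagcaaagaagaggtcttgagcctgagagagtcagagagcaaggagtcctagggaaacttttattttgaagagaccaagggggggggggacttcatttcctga
Lhfpl3: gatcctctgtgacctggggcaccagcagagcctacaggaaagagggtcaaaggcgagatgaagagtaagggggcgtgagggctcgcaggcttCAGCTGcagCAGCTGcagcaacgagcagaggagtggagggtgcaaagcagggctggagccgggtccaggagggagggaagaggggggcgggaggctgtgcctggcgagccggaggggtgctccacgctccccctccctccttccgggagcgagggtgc
Olig2: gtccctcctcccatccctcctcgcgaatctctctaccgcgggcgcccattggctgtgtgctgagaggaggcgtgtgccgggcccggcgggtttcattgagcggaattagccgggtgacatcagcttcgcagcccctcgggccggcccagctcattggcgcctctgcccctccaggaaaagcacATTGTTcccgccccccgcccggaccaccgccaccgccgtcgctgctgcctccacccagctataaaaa

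Pdgfra encodes the receptor for platelet-derived growth factor AA that keeps precursors dividing. Its brightest probe set read 10.76, 10.96 and 10.77 on the knockout arrays, against 10.78, 10.72 and 10.74 on the wild-type arrays. Only knockout array 2 stood off from the rest, and the groups overlapped. The difference was 0.08 ± 0.102 (95% interval -0.15 to 0.31; limma adjusted p = 0.743). Both of the dimmer Pdgfra probe sets, at mean levels of 5.13 and 4.67, also had positive differences, of 0.08 and 0.13. The groups overlapped at both, with limma adjusted p values of 0.732 and 0.647.

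Other genes of the same growth factor system are ligands and a second receptor. In the list of 6 ligands and receptors, which includes Pdgfra, 0 passed at an adjusted or an unadjusted threshold, with a median difference of -0.06. The ligand gene Pdgfa read 10.61, 10.59 and 10.49 on the knockout arrays, against 10.70, 10.66 and 10.57 on the wild-type arrays, a difference of -0.08 ± 0.0982. The one ligand whose groups did not overlap was Pdgfd, at 6.81 ± 0.0729 in knockouts against 7.03 ± 0.13 in wild types (both SD, n = 3; limma adjusted p = 0.376). Pdgfb, Pdgfc and the second receptor gene Pdgfrb differed by 0.17, -0.03 and -0.14.

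Cspg4 encodes the NG2 proteoglycan, the surface antigen by which precursors are usually recognised, and is carried by pericytes too. It read 7.21, 7.11 and 7.06 on the knockout arrays, against 6.74, 7.001 and 6.90 on the wild-type arrays. Every knockout array lay above every wild-type array. This held at 4 of the 25 member probe sets in one direction or the other, against 21.5% of all probe sets. The difference was 0.25 ± 0.108 (95% interval 0.0040 to 0.49), with an unadjusted p of 0.0471 and a limma adjusted p of 0.339, which did not pass. A second, dimmer probe set of Cspg4 read 4.23, 4.26 and 4.39 against 4.04, 4.03 and 4.16. There the groups did not overlap either, and the difference was 0.22 ± 0.101 (limma adjusted p = 0.358). With 1 array left out, the difference at the brighter probe set stayed between 0.18 and 0.31. Cspg4 lies on chromosome 9, as does Gnb5, and whether the shared chromosome has a part in the difference was not tested.

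Markers of pericytes and other mural cells are given beside Cspg4. Of 10 mural genes 3 had a positive difference and 7 a negative one, with a median of -0.12, and 1, Rgs5, had an unadjusted p under 0.05, against 15.6% of all genes. Rgs5, a pericyte gene, read 10.68, 10.99 and 11.04 on the knockout arrays, against 11.16, 11.48 and 11.38 on the wild-type arrays (difference -0.43 ± 0.135; limma adjusted p = 0.25). The mean log2 level of the mural list ran from 7.63 to 7.67 on knockout arrays and from 7.69 to 7.88 on wild-type arrays. The part of mural cells in the Cspg4 values was not tested.

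Olig1 and Olig2, neighbours on chromosome 16, encode the factors that specify the whole oligodendrocyte lineage. Olig1 read 10.93, 10.44 and 10.47 on the knockout arrays, against 10.69, 10.54 and 10.65 on the wild-type arrays. Its highest and lowest values were both knockouts, and the difference was -0.01 ± 0.144 (95% interval -0.34 to 0.31). Olig2 read 8.62, 8.12 and 8.54 on the knockout arrays, against 8.29, 8.06 and 8.30 on the wild-type arrays. Knockout array 2 lay among the wild types, and the difference was 0.21 ± 0.148 (limma adjusted p = 0.535). Knockout array 1 was the highest of the 6 for both genes.

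Sox6 encodes a factor that holds precursors back from differentiating and is also made by cortical interneurons. Its 4 probe sets disagreed in sign. The brightest read 8.81, 8.74 and 8.66 on the knockout arrays, against 8.43, 8.75 and 8.50 on the wild-type arrays, a difference of 0.17 ± 0.115 (limma adjusted p = 0.506). A probe set with the _x_at suffix, which marks probes that may bind other transcripts, read 7.60, 7.59 and 7.74 against 7.83, 8.20 and 7.72, a difference of -0.28 ± 0.135 (limma adjusted p = 0.384). The other two differed by -0.07 and 0.05. Correlations between the Sox6 probe sets over the 6 arrays ran only from -0.57 to 0.26, so no direction can be given for this gene.

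Gpr17 encodes a receptor that is on in committed precursors and off again before myelin is made. It read 9.70, 9.69 and 10.10 on the knockout arrays, against 9.77, 10.25 and 10.29 on the wild-type arrays. The 2 lowest arrays were knockouts and the 2 highest were wild types, with knockout array 3 and wild-type array 4 crossing over. The difference was -0.27 ± 0.169 (95% interval -0.66 to 0.11; limma adjusted p = 0.48), and it was negative in every alternative fit, from -0.44 to -0.18.

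Ptprz1 encodes a receptor tyrosine phosphatase abundant in precursors and astrocytes. The most negative of the 25 member differences was at one of its probe sets. The brightest probe set read 11.19, 11.57 and 11.35 on the knockout arrays, against 11.70, 11.79 and 11.51 on the wild-type arrays. Knockout array 2 and wild-type array 6 overlapped. The difference was -0.30 ± 0.13 (unadjusted p = 0.0492, limma adjusted p = 0.345). At the second probe set the levels were 10.93, 11.21 and 11.20 against 11.47, 11.70 and 11.26, with no overlap. It differed by -0.36 ± 0.139 (95% interval -0.67 to -0.05; unadjusted p = 0.0291, limma adjusted p = 0.298). The third differed by -0.13 ± 0.143. The 3 probe sets followed each other across arrays, with Pearson r from 0.61 to 0.94, as 3 readings of the same RNA. None of these differences passed over all probe sets. Without 1 array, that of the second probe set ran from -0.47 to -0.25.

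A ligand of this phosphatase showed a larger difference. Ptn, which encodes pleiotrophin, read 11.38, 11.85 and 11.56 on the knockout arrays, against 12.23, 12.02 and 12.07 on the wild-type arrays. All 3 knockout arrays lay below the wild types, by -0.51 ± 0.136 (unadjusted p = 0.00446, limma adjusted p = 0.218), short of the threshold. It was the only gene past an unadjusted p of 0.05 among 7 ligands and partners, whose median difference was 0.03, against 15.6% of all genes. The adhesion gene Cntn1 differed by -0.09.

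Since astrocytes also make Ptprz1, their markers are given beside it. Of 10 astrocyte genes 7 had a negative difference, with a median of -0.16, while 40.1% of all genes had a negative difference. At an unadjusted p under 0.05, 1 was higher and 4 were lower, beside 9.89% of all genes higher and 5.68% lower. The groups did not overlap at 5 of the 10, against 25.1% of all genes, and 0 passed limma's adjusted threshold. The mean log2 level of the astrocyte list ran from 10.62 to 10.83 on the knockout arrays and from 10.80 to 10.98 on the wild-type arrays. By this mean the groups overlapped. The part of astrocytes in the Ptprz1 values was not tested.

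Vcan encodes versican, a large chondroitin sulphate proteoglycan of the matrix around precursors. Its brightest probe set read 9.29, 9.33 and 9.13 on the knockout arrays, against 9.42, 9.35 and 9.34 on the wild-type arrays. The groups did not overlap, but only narrowly, and the difference was -0.12 ± 0.102 (95% interval -0.35 to 0.11; limma adjusted p = 0.616). The 8 Vcan probe sets spanned levels from 2.34 to 9.31, with 3 positive and 5 negative differences between -0.13 and 0.06. The 4 dimmest, at levels of 3.30 or less, lay in the lowest 16.8% of all probe sets and were not shown to read above background. Vcan and Pdgfra are expressed by meningeal fibroblasts as well, whose 10 markers all had a negative difference, with a median of -0.33. At an unadjusted p under 0.05, 6 were lower, against 5.68% of all genes, and 0 were higher, against 9.89%. The groups did not overlap at 7 of the 10, against 25.1% of all genes, and 0 passed limma's adjusted threshold. The mean log2 level of these markers ran from 7.38 to 7.39 in the knockouts and from 7.67 to 7.74 in the wild types. The part of fibroblasts in the values of Vcan was not tested.

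Matrix genes that act with versican gave 0 calls in limma, and 1 of the 12, Tnr, had an unadjusted p under 0.05, against 15.6% of all genes. In a list of 12 hyaluronan-binding proteoglycans, link proteins and related genes, 8 differences were positive and the median was 0.05. Tnr, for tenascin-R, which binds these proteoglycans, read 8.25, 8.59 and 8.62 on the knockout arrays, against 9.05, 8.86 and 8.88 on the wild-type arrays. The groups did not overlap, and the difference was -0.44 ± 0.126 (limma adjusted p = 0.234). Bcan, for brevican, differed by -0.14 (at an _x_at probe set) and the link protein gene Hapln1 by -0.21.

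Lhfpl3 encodes a membrane protein that is enriched in precursors. It read 9.61, 9.60 and 9.35 on the knockout arrays, against 9.67, 9.87 and 9.57 on the wild-type arrays. Wild-type array 6 fell among the knockouts, and the difference was -0.18 ± 0.122 (limma adjusted p = 0.519). A second probe set, at a mean level of 6.47, differed by 0.04 ± 0.131. The 2 probe sets ran against each other across the arrays (Pearson r = -0.69), so the sign for this gene also depends on the probe set. All 25 differences are shown in the plot of probe sets with their intervals.

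**Figure D2:**
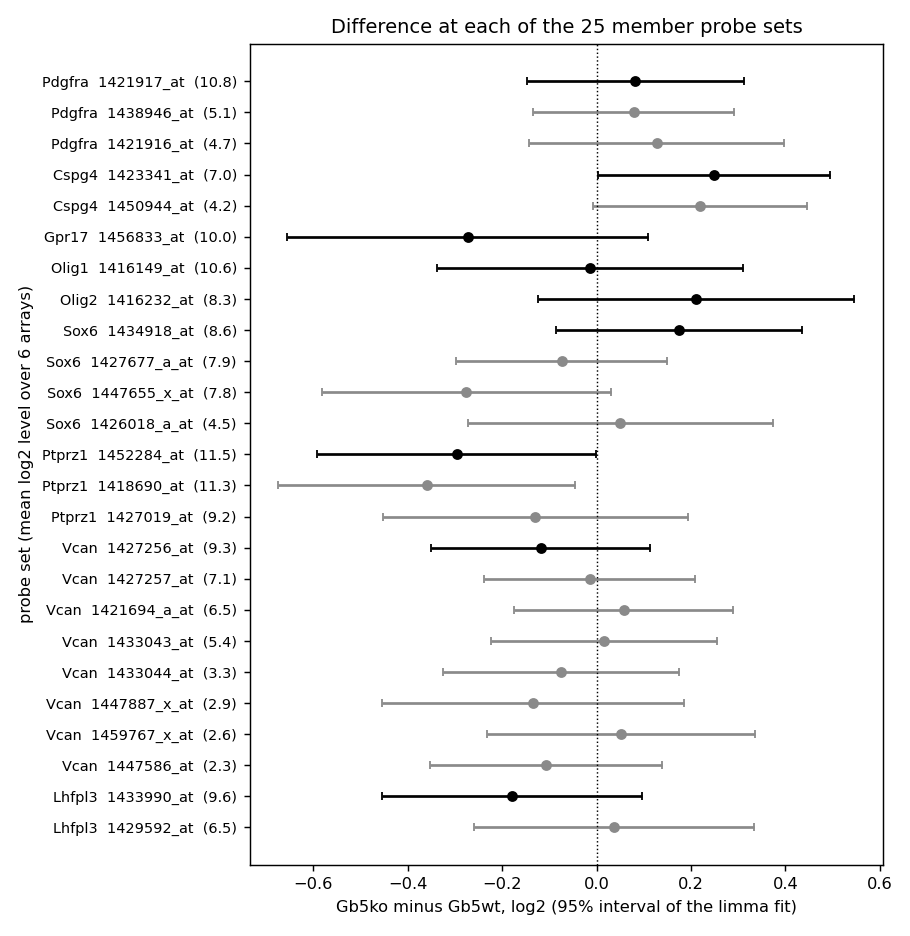
Difference between Gb5ko and Gb5wt (log2, point) with the 95% interval of the limma fit (bar) for each of the 25 probe sets, with the mean level over 6 arrays in brackets. Black marks the brightest probe set of a gene and grey the others. Intervals exclude 0 at 3 probe sets, 1 of Cspg4 on the positive side and 2 of Ptprz1 on the negative side.

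The members did not move as a block from array to array. Among the 36 pairs of the 9 genes, Pearson r over the 6 arrays was positive for 18 and negative for 18, from -0.91 to 0.93 with a median of -0.06. With each value taken as the deviation from its group mean, 19 pairs were positive and the median was 0.08. Exact permutation tests over all 720 pairings gave an unadjusted two-sided p under 0.05 for 2 pairs, and 0 pairs passed after Benjamini-Hochberg adjustment over the 36.

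The highest correlation joined Cspg4 and Sox6 (Pearson r = 0.93, exact permutation p = 0.00694, adjusted p = 0.25; Spearman rho = 0.83, exact permutation p = 0.0583, adjusted p = 0.7). Without arrays 1 and 4, the farthest from the Cspg4 median, r was 0.78. Only the brightest Sox6 probe set was read here, and its r with the other Sox6 probe sets was -0.36, -0.05 and -0.57. The pair was not tested at those other probe sets. The lowest joined Olig2 and Ptprz1 (r = -0.91, exact permutation p = 0.0208, adjusted p = 0.375; rho = -0.94, exact permutation p = 0.0167, adjusted p = 0.6). Without arrays 1 and 3, r was -0.54. Olig1 and Olig2, which lie side by side, had an r of 0.57 (exact permutation p = 0.236, adjusted p = 0.818; rho = 0.49, exact permutation p = 0.356, adjusted p = 0.974). Without arrays 1 and 2 it turned to -0.32, so it rested on those arrays. The matrix of correlations shows both signs throughout.

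**Figure D3:**
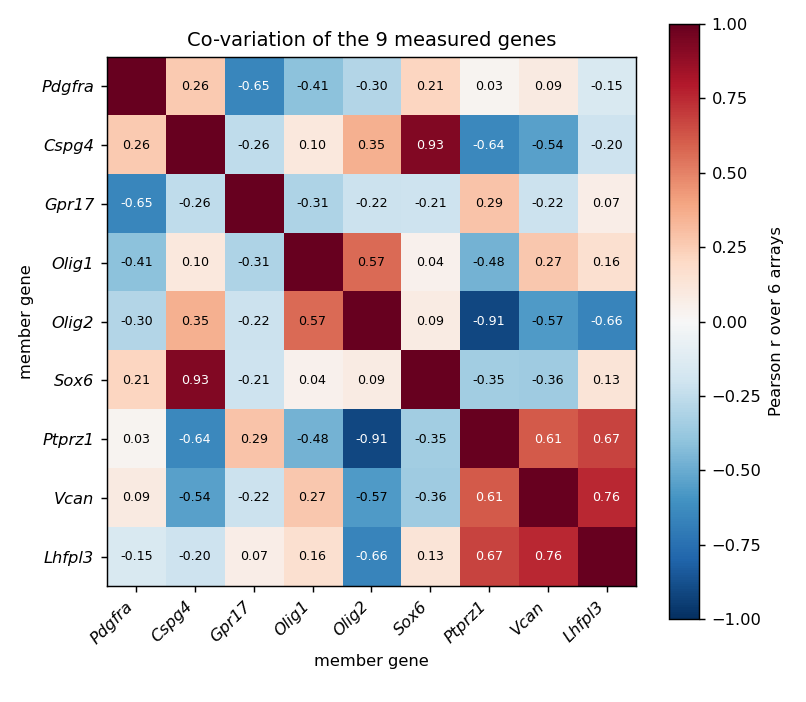
Pearson correlation over the 6 arrays between the brightest probe sets of the 9 measured genes, red for positive and blue for negative. Positive and negative pairs are equally many, and the strongest are Cspg4 with Sox6 (0.93) and Olig2 with Ptprz1 (-0.91).

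Pdgfra was also set against all other genes in the brighter part of the data. Of 9096 genes, the 5 with the highest Pearson r over the 6 arrays were Stx12 (0.99), Wdr47 (0.98), Washc5 (0.98), Oga (0.97) and Fbxl20 (0.97). Each was highest on knockout array 2, as Pdgfra was, and their spans over the arrays were at most 0.25. With 6 arrays and so many genes such values are a description only. None of the 8 other measured members was among them.

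Further genes enriched in precursors were read from a list of 18, of which 16 were measured. Positive and negative differences were 8 each, the median was -0.02, and 0 passed limma's adjusted threshold. At an unadjusted p under 0.05, 3 were higher, against 9.89% of all genes, and 1 was lower, against 5.68%. C1ql1, which encodes a secreted C1q-like protein, read 6.89, 6.53 and 6.17 on the knockout arrays, against 5.92, 6.09 and 6.12 on the wild-type arrays. The knockouts lay above the wild types, and the difference was 0.49 ± 0.171 (limma adjusted p = 0.272). Cacng4, for an AMPA receptor auxiliary subunit, was likewise without overlap, at 0.36 ± 0.146 (limma adjusted p = 0.321). The third was Kcnip3, a calcium sensor gene, at 0.43 ± 0.15. Tnr was the gene on the lower side.

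Among transcription factors of the lineage other than the members, 0 of 14 passed limma's adjusted threshold. Of these factors 6 had a positive difference, with a median of -0.08, and 2 had an unadjusted p under 0.05, against 15.6% of all genes. Sox10, the factor present from precursor to myelinating cell, read 10.31, 10.02 and 10.31 on the knockout arrays, against 10.03, 9.97 and 10.05 on the wild-type arrays. Knockout array 2 lay among the wild types, and the difference was 0.19 ± 0.113 (limma adjusted p = 0.453). Those 2 were Zfp536 and St18. Zfp536, a zinc finger gene, differed by 0.32 ± 0.106 and St18, a zinc finger gene of later oligodendrocytes, by -0.38 ± 0.145, with limma adjusted p values of 0.262 and 0.291.

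A list of 9 genes chosen as restraining differentiation had 0 calls. It holds Tcf4, a gene distinct from Tcf7l2 of the transcription factor list, and the role of each listed gene was not tested. Id2, which sequesters helix-loop-helix partners, read 10.54, 10.52 and 10.47 on the knockout arrays, against 10.94, 10.92 and 10.81 on the wild-type arrays. The groups were well apart, and the difference was -0.38 ± 0.0961 (unadjusted p = 0.00322, limma adjusted p = 0.209), which did not pass. Bmp4, a ligand that inhibits maturation and is made by newly committed cells, differed by -0.41 ± 0.141 (limma adjusted p = 0.269). Lingo1, a membrane inhibitor of myelination found on neurons and the lineage, differed by 0.36 ± 0.119 (limma adjusted p = 0.262). Like Cspg4 and Gnb5, Lingo1 lies on chromosome 9. Lingo1 (bases 56618460 to 56796310) lies close to Cspg4 (56865104 to 56899870), while Gnb5 starts farther off, at 75306288. At both Lingo1 and Cspg4 every knockout array lay above every wild-type array. The part of the shared chromosome or of this closeness was not tested. The remaining 6 had unadjusted p values above 0.05, so that 1 gene was higher and 2 were lower at that threshold, beside 9.89% of all genes higher and 5.68% lower.

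Later stages of the lineage had lower medians than the precursor genes. Genes of newly formed oligodendrocytes, 13 measured of 15, had 9 negative differences and a median of -0.21. Mature markers, 12 measured of 14, had 12 negative differences and a median of -0.25, while 40.1% of all genes had a negative difference. In either list 0 passed limma's adjusted threshold. At an unadjusted p under 0.05, the newly formed list had 1 gene higher and 3 lower, and the mature list 3 lower, beside 9.89% of all genes higher and 5.68% lower. Bmp4, counted above among the restraining genes, is also 1 of the 3 lower genes of the newly formed list. The lists were chosen with earlier results on myelin genes known, and the difference between the lists was not tested.

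Among the newly formed genes, Ust, a chondroitin and dermatan sulphate sulphotransferase gene, read 7.21, 7.43 and 7.52 on the knockout arrays, against 8.23, 7.81 and 8.06 on the wild-type arrays. It differed by -0.64 ± 0.136 with no overlap (unadjusted p = 0.00107, limma adjusted p = 0.187). The Ust probe set has the _x_at suffix, so its probes may bind other transcripts. Enpp6, which marks the newly formed cell, differed by -0.21 ± 0.18, Bcas1 by -0.10 ± 0.109 and Itpr2 by 0.08 ± 0.116. Fyn, a kinase gene active in both neurons and oligodendrocytes, differed by 0.26 ± 0.1 (limma adjusted p = 0.302). In the mature list, the tight junction gene Cldn11 read 9.99, 10.50 and 10.71 on the knockout arrays, against 11.07, 10.75 and 11.14 on the wild-type arrays.

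Array by array, the mean log2 level of the precursor list varied less than that of the mature list. Over 9 precursor genes this mean ran from 9.49 to 9.57 on knockout arrays and from 9.50 to 9.59 on wild-type arrays. Members that differed in opposite directions offset each other in it. The mature list read 9.17, 9.36 and 9.78 on the knockout arrays and 9.69, 9.56 and 10.01 on the wild-type arrays, and the groups overlapped. As the log2 of summed linear values, the precursor list ran from 13.13 to 13.22 on knockout arrays and 13.24 to 13.34 on wild-type arrays. By that sum, in which bright probe sets weigh most, the groups did not overlap. The sum was not tested. Knockout array 1, lowest for the mature list, was the highest array for 4 of the 9 precursor genes. The plot of the 3 lists puts these values side by side.

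**Figure D4:**
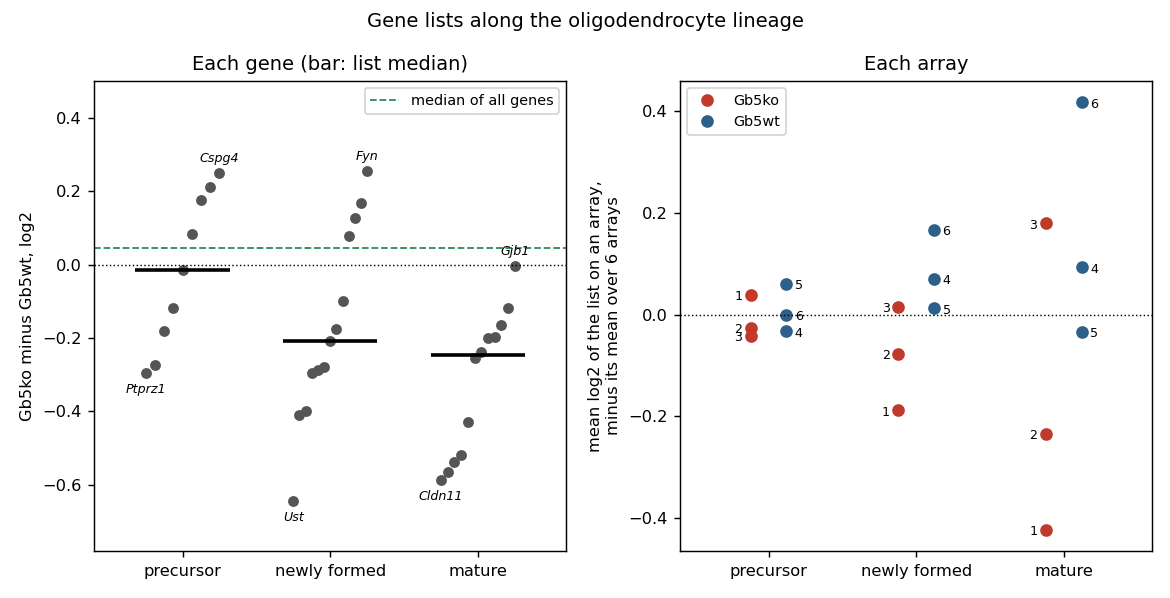
Left, the difference between Gb5ko and Gb5wt (log2) for each gene of the precursor (9), newly formed (13) and mature (12) lists, with black bars at the list medians of -0.01, -0.21 and -0.25. Right, the mean log2 level of each list on each array relative to its mean over the 6 arrays, with array numbers as labelled. Precursor values stay near 0 on every array, while mature values are lowest on knockout array 1 and highest on wild-type array 6.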

How the data were processed

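The authors deposited log2 values for each probe set, made with RMA and Partek per the submitters' processing notes, with no version given. RMA corrects background, normalizes arrays to a common distribution and compresses differences near the background. Array medians ran from 5.81 to 5.85, and the values were not normalized again. Detection calls were not used here. After 64 control probe sets were left out, 45037 entered limma 3.58.1 (lmFit, eBayes; R 4.3.3), knockout against wild type, two-sided, with Benjamini-Hochberg adjustment over all of them and a threshold of 0.05. The number of arrays limits precision: the median standard error was 0.123. For each of 18193 genes the brightest probe set annotated to that gene alone was used. No gene was named from any of the 932 probe sets with several genes. The steps were first tested on simulated data. At an adjusted p under 0.05, limma recovered 5 of 50 simulated 1.5-fold changes and 44 of 50 simulated 2-fold changes, with 12 false calls. The largest member difference was 1.28-fold, so a count of 0 called says little about changes of that size.

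Members, lists and alternatives were chosen with earlier results of these data known. Named genes are all members, Gnb5, list genes with the smallest p values and the 5 genes most like Pdgfra. Where further list genes are named, they were chosen for their role after their values were seen. Alternatives covered normalization, a filter on dim probe sets, the variance model, arrays with sex-linked or pituitary signal, the probe set read per gene, the threshold and leaving out each array. Each pair of member genes was compared by an exact permutation test over array pairings. Promoter windows came from RefSeq, GRCm38.p6; the last 50 bases of each were not used. Figures were drawn with matplotlib 3.10.9.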

Additional observations from a re-analysis of the deposited data

How the results depend on the processing

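No paired analysis was possible because the labels name no litter or pair for a sample. They give only the group and an array number, 1 to 3 for knockouts and 4 to 6 for wild types. The count of member probe sets passing limma's adjusted threshold was 0 in every alternative run, also at an adjusted p under 0.1, with 3 of 25 at an unadjusted p under 0.05. That number of 3 went to 1 with array weights and ran from 1 to 3 with 1 array left out, at 1 without knockout array 1, wild-type array 4 or wild-type array 5. Counted by gene, 2 of 9 genes had an unadjusted p under 0.05, against 15.6% of all genes. This became 1 after quantile normalization, median centring, trend and robust eBayes or averaging of all probe sets per gene, and 0 with array weights or without the arrays of highest Gh. It ran from 0 to 2 with 1 array left out, at 0 without knockout array 1, 2 without knockout array 2 and 1 without any other array. The cause was not tested. The median difference of the members stayed between -0.14 and 0.07, so its sign is not settled. Over the 25 probe sets, 316 alternative values stayed on the uncalled side of the threshold. Signs were kept in all of these fits at every probe set of Pdgfra, Cspg4, Gpr17, Olig2 and Ptprz1, and at the brightest of Sox6, Vcan and Lhfpl3, while Olig1 changed sign in 5 of 13. Whether the dimmest probe sets read above background is unknown.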

Other observations

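Precursors are a main dividing cell of the adult brain, so genes of dividing cells were read beside them. Of 9 measured, 4 had a positive and 5 a negative difference, with a median of -0.01, and 0 passed limma's adjusted threshold (1 had an unadjusted p under 0.05, against 15.6% of all genes). Rrm2, a subunit gene of ribonucleotide reductase, read 10.01, 10.13 and 10.21 on the knockout arrays, against 10.77, 10.36 and 10.35 on the wild-type arrays. The groups did not overlap, and the difference was -0.38 ± 0.136 (limma adjusted p = 0.276). The Rrm2 probe set has the _x_at suffix, so its probes may bind other transcripts. Top2a, for the topoisomerase of dividing cells, differed by -0.19 ± 0.106, also without overlap.

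Relatives of the members that were not well covered gave further values. Neu4 was not measured, and the other 3 sialidase genes differed by 0.28 ± 0.143 (Neu1, the lysosomal enzyme), 0.04 ± 0.14 (Neu2) and -0.29 ± 0.158 (Neu3). In the family of Lhfpl3, 4 other genes were measured. Lhfpl4 and Lhfpl5 read higher on every knockout array than on any wild-type array, with differences of 0.22 ± 0.108 and 0.29 ± 0.142 and limma adjusted p values of 0.385 and 0.389, while groups did not overlap at 25.1% of all genes. Lhfp and Lhfpl2 differed by 0.03 and -0.0019, with overlapping groups.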
